A study of Mus musculus with 12 samples.

Results

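Cadherins, claudins and the other proteins of cell-cell junctions were represented by 45 of the 20280 gene probes on the array, which stand for 35 of the 7181 genes named in the scanner files. They were taken as the gene probes whose name in the scanner files begins with Cdh, Pcdh, Cldn, Gja, Gjb, Tjp, Ctnn, Dsg, Dsc, Dsp, Pkp or Jup, or is Ocln, Epcam or Tacstd1 (the older name of Epcam). A further 5 probes share the letters Dsc but are described as Down syndrome critical region genes and were left out. By role, the members were 7 cadherin, 9 protocadherin, 6 desmosome, 14 tight junction and 8 connexin probes and the Tacstd1 probe. No probe name began with Ctnn or Pkp, because the array carries catenins and plakophilins under older names. These and other relatives, 16 probes of 12 genes, were counted apart from the members.

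Classical cadherins join neighbouring cells by binding their own kind across the gap, and catenins tie their cytoplasmic tails to actin. Desmosomes use the related desmogleins and desmocollins, which plakoglobin, plakophilins and desmoplakin connect to keratin filaments. Claudins and occludin seal tight junctions on a scaffold of ZO proteins (the Tjp genes), whereas connexins form gap junction channels that pass small molecules between cells. Mouse ES cells grow as compact epithelial-like colonies that are held together by E-cadherin, the product of Cdh1.

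RNA was compared between 4 mouse ES cell lines that carry different alleles of Rex1 (Zfp42), a zinc-finger gene used as a marker of pluripotent cells. EB5 was the Rex1+/+ line. RKPG9 was a single Rex1+/- clone in which a puromycin resistance and EGFP cassette (pacEGFP) replaced the start of the coding sequence on one allele. HP3 and HP4 were Rex1-/- lines, with no wild-type Rex1 allele. The study made such lines either from RKPG9 by selection in high-dose puromycin, through spontaneous gene conversion, or with a hygromycin resistance vector for the other allele, and which route gave HP3 and HP4 is not stated. Each genotype was represented by the 1 or 2 lines named here. All lines derive from E14tg2a cells and were kept undifferentiated on gelatin, without feeder cells and with LIF. Each line was measured on 3 arrays, giving 12 in all, each carrying the RNA of a line, labelled with Cy3, beside a pooled mouse reference labelled with Cy5. Whether arrays of a line stem from different cultures is not given in the labels, and p-values therefore rest on the spread from array to array, which may be only technical.

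A level below is the log2 ratio of the line over the reference RNA on the same array, and a change is the difference of 2 mean levels. The dyes were not swapped, so a level is open to dye bias, and its distance from the reference was not tested. A probe was called where the adjusted p of limma was under 0.05. The EB5 arrays were extracted by the scanner software in a session of their own, with a global background adjustment that was off for the other 9 arrays, so line and session cannot be told apart wherever EB5 enters. Comparisons among RKPG9, HP3 and HP4 lie within 1 session. Signals well above background in Cy3 ranged from 85.3% of probes on an HP4 array to 94.5% on an EB5 array. Both Zfp42 probes lay between 5.22 and 6.11 on all arrays, and for each probe the HP4 arrays lay below all others. HP4 changed by -0.59 and -0.58 against RKPG9 (adjusted p = 0.00011 and 0.00025) and by -0.48 and -0.55 against HP3 (adjusted p = 0.0012 and 0.00098). Against EB5 the changes were -0.52 and -0.53 (adjusted p = 0.0003 and 0.0005). The cause was not tested. The targeted allele is still transcribed as a longer RNA, so these probes are no check of the genotype. Of 11 measured markers of undifferentiated ES cells, among them Zfp42 itself, 8 were more than 4-fold above the reference in every line. Of 14 measured primitive and visceral endoderm markers, 1 was so in each line. Not well above background on any array of a line were 1 of the 14 in EB5 (Foxa2) and 2 in RKPG9 (Gata4 and Ttr). In HP3 there were 3 such markers (Gata4, Foxa2 and Ttr), and in HP4 there were 2 (Gata4 and Foxa2).

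In outline, Dsp and Cldn3 were lower in all 3 targeted lines than in EB5, and Tacstd1 was lower in RKPG9 than in HP3 and HP4. Cdh1, Dsg2 and Cldn4 were lower in HP4 than in each of the other 3 lines. Few of these changes reached 2-fold. Among the members, Dsp passed both thresholds in RKPG9 against EB5, where 0.524% of all probes did, and 1 member did in HP4 against RKPG9, where 0.38% did. No member passed both in HP3 against EB5 (0.217% of all probes), HP4 against EB5 (0.291%), HP3 against RKPG9 (0.281%) or HP4 against HP3 (0.0247%).

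Against EB5, 2 of the 45 members were higher and 13 lower in HP3, or 4.44% and 28.9%, where 11.4% of all probes were higher and 19.1% lower. In HP4 against EB5, 7 were higher and 15 lower (15.6% and 33.3%), beside 18.4% and 26.4% of all probes. In RKPG9 against EB5, 3 were higher and 15 lower (6.67% and 33.3%), beside 12.5% and 21.6%. In all 3 comparisons with EB5 the share of members that fell was therefore above the share over all probes, and the share that rose was below it. In HP4 the share that rose was close to that of all probes. The median change of the members was -0.05, -0.03 and -0.06 in HP3, HP4 and RKPG9, and that of all probes -0.02 in each.

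In the comparisons within the common session, more members were called higher than lower. Against RKPG9, 7 members were higher and 4 lower in HP3 (15.6% and 8.89%), beside 12.6% and 10.1% of all probes. In HP4 against RKPG9, 16 were higher and 8 lower (35.6% and 17.8%), beside 20.9% and 19.1%. Both shares in HP3 against RKPG9, and the share lower in HP4 against RKPG9, thus lay near those of all probes. In HP4 against HP3, 11 were higher and 6 lower (24.4% and 13.3%), beside 13.7% and 14.7%. The median change of the members was 0.04, 0.10 and 0.07 in these 3 comparisons, and that of all probes 0.00, 0.01 and 0.00. The comparisons that share a line share its arrays. Of the members called, 1 in each comparison with EB5, 2 in HP4 against RKPG9 and 4 in HP4 against HP3 were not well above background on any array of a line compared.

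The balance of higher and lower calls moved with the processing. With the processed signals that the scanner software gives, the members split into 4 higher and 11 lower in HP3 against EB5, 6 and 13 in RKPG9 against EB5, 12 and 11 in HP4 against RKPG9 and 8 and 8 in HP4 against HP3. All probes moved too, with 15.0% higher and 20.9% lower in HP3 against EB5 and 14.8% and 19.7% in RKPG9 against EB5. The shares were 20.1% and 26.7% in HP4 against RKPG9 and 12.7% and 18.8% in HP4 against HP3. With median centring of each array in place of loess, the members split into 14 higher and 17 lower in HP4 against EB5 and into 2 higher and 4 lower in HP3 against RKPG9, beside 36.5% and 43.0% of all probes in the first and 5.87% and 9.25% in the second. From the Cy3 channel alone, they split into 3 and 5 in HP3 against EB5, 9 and 8 in HP4 against EB5, 3 and 6 in RKPG9 against EB5, 14 and 2 in HP4 against RKPG9 and 2 and 2 in HP4 against HP3, and over all probes the shares higher and lower were nearly even, from 3.12% and 3.47% in HP4 against HP3 to 18.6% and 19.1% in HP4 against EB5.

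**Figure D1:**
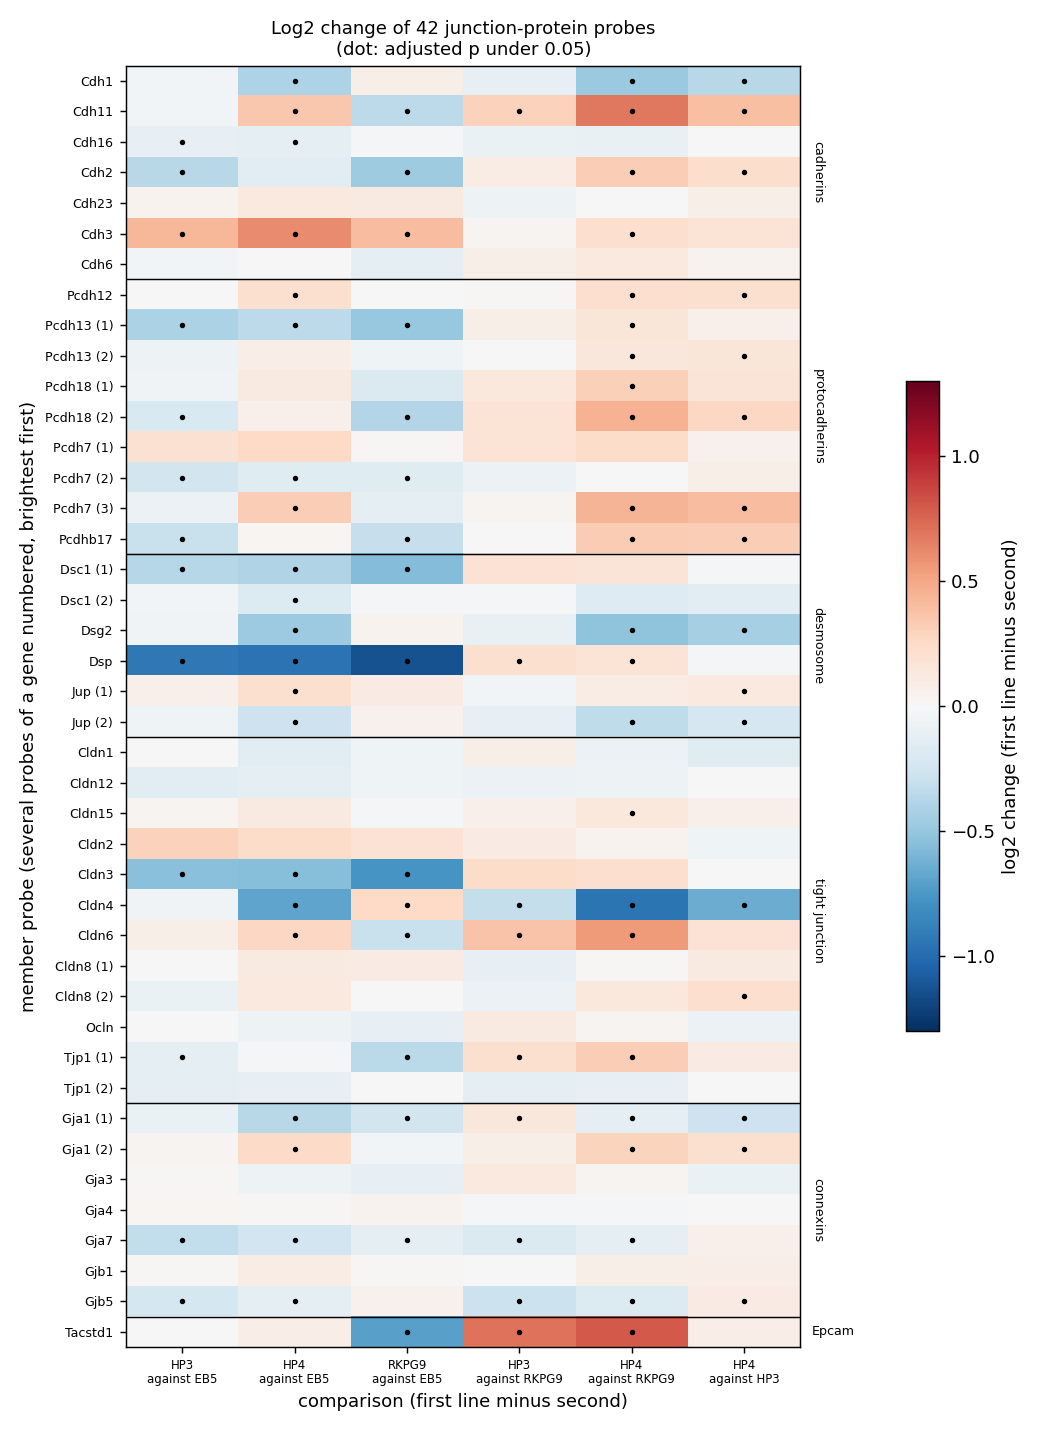
Log2 change (colour, first line minus second) of 42 member probes, in rows by role, in the 6 comparisons, with a dot where the adjusted p was under 0.05. The columns against EB5 hold the blue Dsp and Cldn3 cells, Tacstd1 is red in both columns of the Rex1-/- lines against RKPG9, and Cldn4, Cdh1 and Dsg2 are blue in the 3 columns of HP4.

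The upstream sequences of Cldn4, Dsp and Epcam are shown because these genes changed in different lines. They come from RefSeq's annotation of GRCm38.p6 and cover the 250 bases before the start, 5′ to 3′ on the strand of the gene. Cldn4 lies at chr5:134946935-134947184 on the minus strand, Dsp at chr13:38151044-38151293 and Epcam at chr17:87635729-87635978, both on the plus strand. Capitals mark CAGGTG or its reverse complement CACCTG, the E-box bound by Snail and Zeb factors, searched on both strands.
Cldn4: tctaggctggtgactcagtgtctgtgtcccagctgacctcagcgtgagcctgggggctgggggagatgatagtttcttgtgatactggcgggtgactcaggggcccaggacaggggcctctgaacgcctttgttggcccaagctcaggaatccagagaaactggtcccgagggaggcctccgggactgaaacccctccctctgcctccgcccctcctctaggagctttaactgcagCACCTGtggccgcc
Dsp: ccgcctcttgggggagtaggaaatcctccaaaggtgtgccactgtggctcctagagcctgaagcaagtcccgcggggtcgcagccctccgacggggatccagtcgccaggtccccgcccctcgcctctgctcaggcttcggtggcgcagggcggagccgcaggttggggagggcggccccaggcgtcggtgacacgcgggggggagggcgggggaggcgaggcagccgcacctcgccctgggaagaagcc
Epcam: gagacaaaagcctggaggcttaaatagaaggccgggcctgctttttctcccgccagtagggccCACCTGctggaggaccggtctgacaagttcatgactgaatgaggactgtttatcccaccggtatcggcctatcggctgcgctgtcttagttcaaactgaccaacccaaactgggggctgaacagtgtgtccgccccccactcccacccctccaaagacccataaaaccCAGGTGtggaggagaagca

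The E-box was found once before Cldn4, 14 bases from the start, and at 2 places before Epcam, but not in the window before Dsp. It was present in 17.2% of the 32851 promoters in the table and in 6 of 28 promoters of the members. GCCATNTT, which resembles sites of YY1, a relative of Rex1, was found in none of those 28, and in 3.91% of all promoters. Both motifs were chosen after the values had been seen, and a match is a description of the letters.

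Gjb5, the gene of an epidermal gap junction protein, was lower in both Rex1-/- lines than in RKPG9. Its levels were 0.03, 0.08 and 0.07 in HP4, 0.00, -0.04 and -0.09 in HP3, 0.23, 0.23 and 0.25 in RKPG9 and 0.18, 0.16 and 0.20 in EB5. The arrays of both Rex1-/- lines lay below all arrays of EB5 and RKPG9. The change was -0.28 in HP3 (SE 0.03, adjusted p = 5.1e-05) and -0.18 in HP4 (SE 0.03, adjusted p = 0.0011) against RKPG9, and both calls were lost with the Cy3 channel alone. HP4 was 0.11 above HP3 (adjusted p = 0.028), but that call was lost in 9 of 16 alternatives.

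Gja7, now Gjc1, encodes connexin 45 and was lower in each targeted line than in EB5, with changes of -0.32 in HP3, -0.25 in HP4 and -0.12 in RKPG9 (SE 0.03 in each, adjusted p = 1.6e-05, 7.1e-05 and 0.0073). It was also lower in HP3 and HP4 than in RKPG9, by -0.19 and -0.12 (adjusted p = 0.00056 and 0.007). In the Cy3 channel alone none of these 5 calls was made.

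Gja1, the gene of connexin 43, the most widely used connexin, had 2 probes that went in opposite directions. The brighter was at -0.17 on all 3 HP4 arrays and between 0.15 and 0.21 in EB5, and the other was between 0.81 and 0.89 in HP4 and between 0.54 and 0.63 in EB5. In HP4 against EB5 they were thus called lower (-0.36, SE 0.04, adjusted p = 2.9e-05) and higher (0.25, SE 0.03, adjusted p = 0.00015), so no direction is given for Gja1. Gja3, Gja4 and Gjb1 were called in none of the 6 comparisons, and Gja3 was well above background on 2 EB5 arrays and on none of the others.

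**Figure D2:**
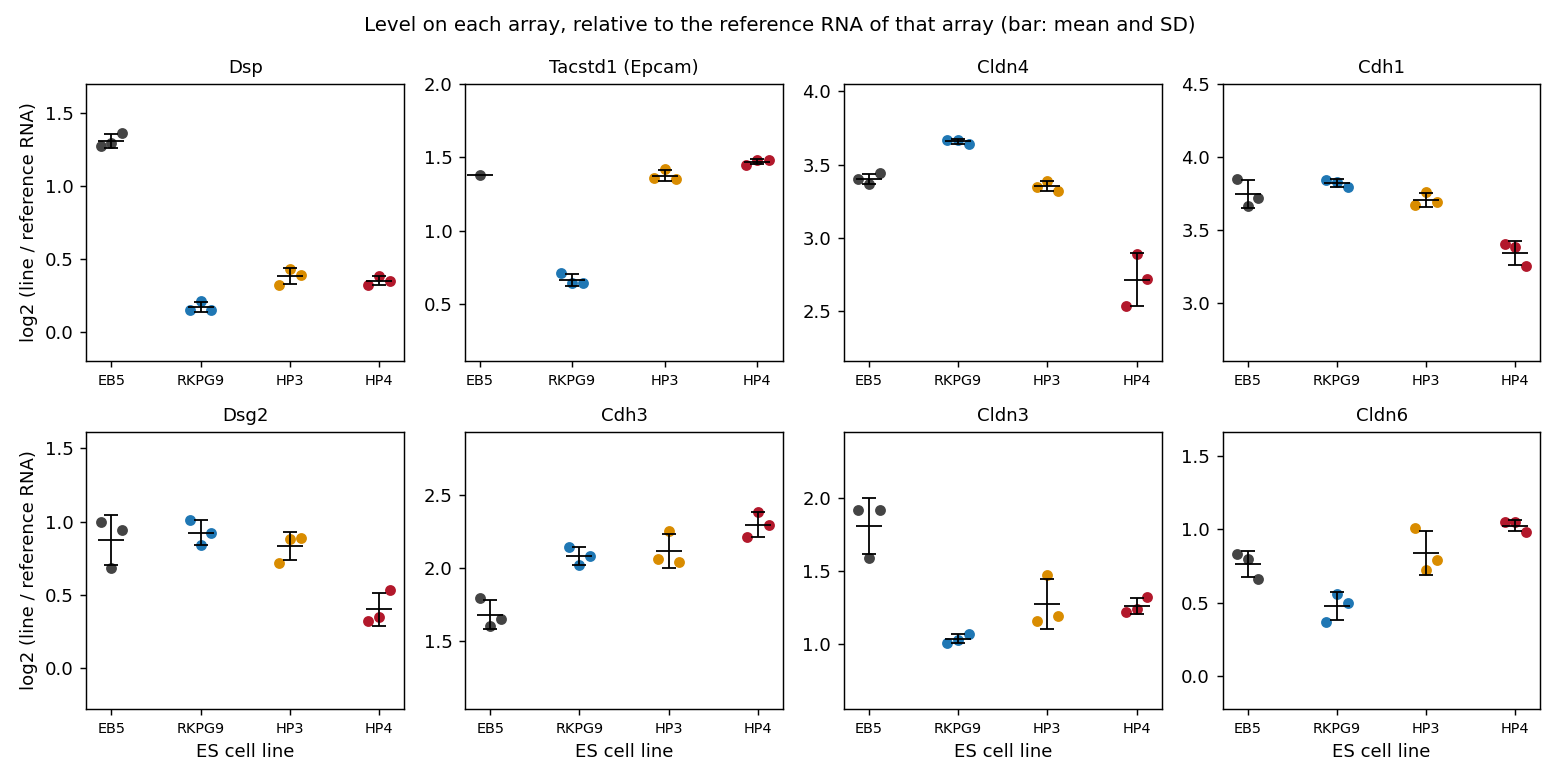
Level (log2 ratio of the line over the reference RNA) of 8 members on each array of EB5, RKPG9, HP3 and HP4, with points for arrays and bars for the mean and SD, on vertical axes of equal length. Dsp and Cldn3 are highest in EB5, Tacstd1 and Cldn6 are lowest in RKPG9 (1 EB5 array was usable for Tacstd1), and Cldn4, Cdh1 and Dsg2 are lowest in HP4.

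Dsp encodes desmoplakin, the link between desmosomes and keratin filaments. Its probe was at 0.32, 0.38 and 0.35 in HP4, 0.32, 0.43 and 0.39 in HP3, 0.15, 0.21 and 0.15 in RKPG9 and 1.27, 1.29 and 1.36 in EB5. All 9 arrays of the targeted lines lay far below the EB5 arrays. The change against EB5 was -1.13 in RKPG9, or 2.20-fold lower (SE 0.04, adjusted p = 2.2e-09), -0.93 in HP3 (adjusted p = 3.2e-08) and -0.96 in HP4 (adjusted p = 1.7e-08). The changes were larger from the Cy3 channel alone, at -1.70, -1.45 and -1.46, and no alternative removed a call. The heterozygous line was the lowest, and HP3 and HP4 were above it by 0.21 (adjusted p = 0.002) and 0.18 (adjusted p = 0.0032), but with median centring the first was 0.13 and not called and the second turned to -0.25. HP4 and HP3 differed by -0.03 (95% interval -0.11 to 0.06), though with median centring HP4 was called lower (-0.39, adjusted p = 0.0007).

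Dsg2, the desmoglein of simple epithelia, was at 0.32, 0.35 and 0.53 in HP4, 0.72, 0.88 and 0.89 in HP3, 1.01, 0.84 and 0.92 in RKPG9 and 1.00, 0.68 and 0.94 in EB5. The HP4 arrays lay below all others. The change in HP4 was -0.52 against RKPG9 (SE 0.09, adjusted p = 0.00051), -0.43 against HP3 (adjusted p = 0.004) and -0.47 against EB5 (adjusted p = 0.001). HP3 against RKPG9 was not called (-0.10, 95% interval -0.28 to 0.09). Without background subtraction the changes of HP4 were smaller, -0.25 against RKPG9 and -0.20 against HP3, and were still called, and with the Cy3 channel alone that against RKPG9 was -0.31 and was not (adjusted p = 0.085).

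The brighter of 2 probes named Dsc1, both described as desmocollin 2A/2B, fell by 0.37 in HP3, 0.39 in HP4 and 0.56 in RKPG9 against EB5 (SE 0.08, adjusted p = 0.0046, 0.0023 and 0.0002), and the other was called in HP4 against EB5 alone (-0.18, adjusted p = 0.037). With the processed signals or median centring the brighter probe was not called in any of the 3, and with median centring the change in HP4 was 0.09. Jup, the gene of plakoglobin, again had 2 probes that disagreed: in HP4 against EB5 the brighter was called higher (0.21, SE 0.04, adjusted p = 0.0017) and the other lower (-0.27, SE 0.06, adjusted p = 0.0033), and with the Cy3 channel alone the brighter was at -0.14. Over the 9 member genes with more than 1 probe and the 6 comparisons, probes of 1 gene were called in opposite directions in 6 of 54 cases, which lay in 3 genes, Gja1, Jup and Pcdh7, and all probes were called in the same direction in 3.

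**Figure D3:**
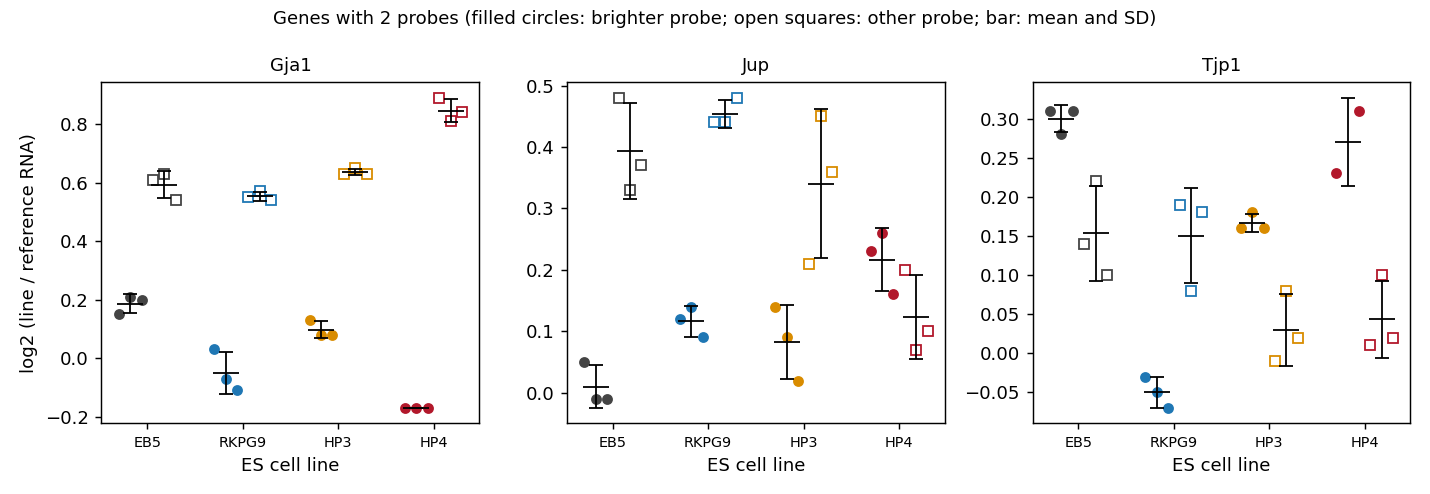
Level (log2 ratio of the line over the reference RNA) on each array for both probes of Gja1, Jup and Tjp1, with filled circles for the brighter probe, open squares for the other, and bars for the mean and SD. In HP4, 1 probe of Gja1 and Jup goes down and the other up against EB5, and the brighter Tjp1 probe is lowest in RKPG9 while the other is not.

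Cdh1 was at 3.40, 3.38 and 3.25 in HP4, 3.67, 3.76 and 3.69 in HP3, 3.84, 3.83 and 3.79 in RKPG9 and 3.85, 3.66 and 3.72 in EB5. E-cadherin RNA was thus well above the reference in all 4 lines, and each HP4 array was below every other array. The change in HP4 was -0.48 against RKPG9, or 1.39-fold lower (SE 0.05, adjusted p = 3.4e-05), -0.36 against HP3 (adjusted p = 0.00073) and -0.40 against EB5 (adjusted p = 0.00015). From the Cy3 channel alone these were -0.25, -0.17 and -0.10, and none was called. HP3 differed from EB5 by -0.04 (95% interval -0.16 to 0.08) and from RKPG9 by -0.11 (95% interval -0.23 to 0.01).

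Cdh3, which encodes P-cadherin, was higher in the 3 targeted lines. It was at 2.21, 2.38 and 2.29 in HP4, 2.06, 2.25 and 2.04 in HP3, 2.14, 2.02 and 2.08 in RKPG9 and 1.79, 1.60 and 1.65 in EB5. The change against EB5 was 0.43 in HP3 (SE 0.07, adjusted p = 0.0005), 0.61 in HP4 (adjusted p = 3.1e-05) and 0.40 in RKPG9 (adjusted p = 0.00065), but with the Cy3 channel alone it was -0.35, -0.35 and -0.38, so the direction against EB5 turned with the processing. Without background subtraction it was 0.07, -0.04 and 0.12, and none was called. Cdh2, the gene of N-cadherin, was below the reference in all lines, with a change of -0.46 in RKPG9 (SE 0.06, adjusted p = 0.00018) and -0.36 in HP3 (adjusted p = 0.0014) against EB5, the second lost with the Cy3 channel alone. HP4 was 0.32 above RKPG9 (adjusted p = 0.002), a call that was lost in 4 of 16 alternatives. Cdh16, a kidney cadherin, was called lower against EB5 in HP3 (-0.11, adjusted p = 0.045) and in HP4 (-0.13, adjusted p = 0.021), but with the Cy3 channel alone the changes were 0.05 and 0.12. Besides that reversal, the call in HP3 was lost in 10 of 16 alternatives and that in HP4 in 4 of 16. Cdh6 and Cdh23 were called in no comparison. Cdh11, which marks mesenchymal cells, was at mean levels of -1.86 in HP4, -2.25 in HP3, -2.55 in RKPG9 and -2.21 in EB5, but was not well above background on any HP4 array, so no fold is given for HP4.

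The 9 protocadherin probes, from a family used mostly in neurons, come from 5 genes and held 7 that were higher in HP4 than in RKPG9 and none that was lower, where 20.9% of all probes were higher. Of the same 9, 5 were higher in HP4 than in HP3, where 13.7% of all probes were, and none was called in HP3 against RKPG9. The median change of the 9 was 0.24 in HP4 against RKPG9, where that of all probes was 0.01. Most were at or below the reference, and of the 7 and 5 calls, 1 and 2 had a line with no array well above background. Pcdh12, a protocadherin of endothelium and trophoblast, was at 0.68, 0.62 and 0.63 in HP4, 0.44, 0.43 and 0.44 in HP3 and 0.41, 0.36 and 0.50 in RKPG9. HP4 was above both others, by 0.22 against RKPG9 (SE 0.05, adjusted p = 0.0031) and 0.21 against HP3 (adjusted p = 0.008), the second lost with the Cy3 channel alone. Pcdhb17 changed by 0.33 in HP4 against RKPG9 (SE 0.07, adjusted p = 0.0035) and by 0.32 against HP3 (adjusted p = 0.0071), with 1 HP4 array well above background, and both calls were lost with the processed signals. The brighter probe of Pcdh13, described as Pcdhgc5, was instead lower in the targeted lines than in EB5, with changes of -0.41 in HP3, -0.34 in HP4 and -0.49 in RKPG9 (SE 0.05, adjusted p = 5.1e-05, 0.00015 and 6.9e-06). None of these was called with the Cy3 channel alone, and HP4 was at 0.01. The other Pcdh13 probe was called in none of the 3, with changes of -0.07, 0.09 and -0.06.

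Among the tight junction genes, Cldn4 had the largest change. Claudin 4 is an epithelial barrier claudin. Its levels were 2.53, 2.89 and 2.72 in HP4, 3.35, 3.39 and 3.32 in HP3, 3.67, 3.67 and 3.64 in RKPG9 and 3.40, 3.37 and 3.44 in EB5. RKPG9 was above and HP4 below all other arrays, while EB5 and HP3 overlapped. The change in HP4 was -0.95 against RKPG9, or 1.93-fold lower (SE 0.07, adjusted p = 9.5e-07), -0.64 against HP3 (adjusted p = 0.00011) and -0.69 against EB5 (adjusted p = 1.6e-05). HP3 changed by -0.31 against RKPG9 (adjusted p = 0.0062), and RKPG9 by 0.26 against EB5 (adjusted p = 0.013). With the processed signals that the scanner software gives the change of HP4 was -0.56 against RKPG9 and -0.17 against EB5, the second no longer called, and HP3 against RKPG9 turned to 0.03. With the Cy3 channel alone the change against HP3 was -0.39 and was not called, and the call of RKPG9 against EB5 was lost in 4 of 16 alternatives.

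Cldn3, a claudin of many epithelia, was at 1.22, 1.24 and 1.32 in HP4, 1.16, 1.47 and 1.19 in HP3, 1.01, 1.03 and 1.07 in RKPG9 and 1.92, 1.59 and 1.92 in EB5. All arrays of the targeted lines lay below the EB5 arrays. The change against EB5 was -0.77 in RKPG9 (SE 0.09, adjusted p = 5.6e-05), -0.54 in HP3 (adjusted p = 0.0012) and -0.55 in HP4 (adjusted p = 0.00066), and with the processed signals those of HP3 and HP4 were -0.34 and -0.03 and were not called. Cldn6, a claudin of embryonic epithelia, was lowest in RKPG9, with levels of 0.37, 0.56 and 0.50 against 1.01, 0.72 and 0.79 in HP3, 1.05, 1.05 and 0.98 in HP4 and 0.83, 0.80 and 0.66 in EB5. It rose by 0.37 in HP3 (SE 0.07, adjusted p = 0.0036) and by 0.55 in HP4 (adjusted p = 0.00012) against RKPG9, and the call in HP3 was lost with the Cy3 channel alone.

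The tight junction scaffold changed less. The brighter Tjp1 probe, for ZO-1, was lowest in RKPG9, at -0.03, -0.05 and -0.07, with a change of -0.35 against EB5 (SE 0.03, adjusted p = 1.5e-05), 0.21 in HP3 against RKPG9 (adjusted p = 0.00069) and 0.32 in HP4 against RKPG9 (adjusted p = 5.8e-05, 2 HP4 arrays, as an outlier spot was left out). The other Tjp1 probe was called in no comparison, with the Cy3 channel alone the change in RKPG9 was -0.15 and not called, and with median centring HP4 was at -0.06 against RKPG9. Ocln was called in no comparison, with changes between -0.11 and 0.12. Of the remaining claudins, Cldn1, Cldn2 and Cldn12 were called in none, Cldn15 in HP4 against RKPG9 (0.14, adjusted p = 0.045), a call lost in 7 of 16 alternatives, and the Cldn8 call in HP4 against HP3 came from a probe that was on no array well above background.

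Epcam, an epithelial adhesion molecule that is abundant in ES cells, was lowest in the heterozygous line. The Tacstd1 probe was at 1.45, 1.48 and 1.48 in HP4, 1.36, 1.42 and 1.35 in HP3, and 0.71, 0.64 and 0.64 in RKPG9. The scanner software marked its spot as an outlier on 2 EB5 arrays, and the third was at 1.38. HP3 was higher than RKPG9 by 0.71, or 1.64-fold (SE 0.04, adjusted p = 5.3e-07), and HP4 by 0.80, or 1.75-fold (SE 0.04, adjusted p = 1.7e-07). Both rises were called under every alternative, between 0.49 and 0.74 in HP3 and between 0.28 and 0.89 in HP4. RKPG9 was below EB5 with a change of -0.71 from the 1 EB5 array (adjusted p = 3.7e-06, with that array assumed to vary like those of the other lines), of -0.68 with the outlier spots kept, and of -0.11 with the Cy3 channel alone, where it was not called. On the same assumption, HP3 was at 0.00 against EB5 (95% interval -0.11 to 0.11) and HP4 was at 0.09 against EB5 (95% interval -0.02 to 0.20), a value that was called higher with the outlier spots kept (0.13, adjusted p = 0.0085) and lower with median centring (-0.53, adjusted p = 0.00054).

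**Figure D4:**
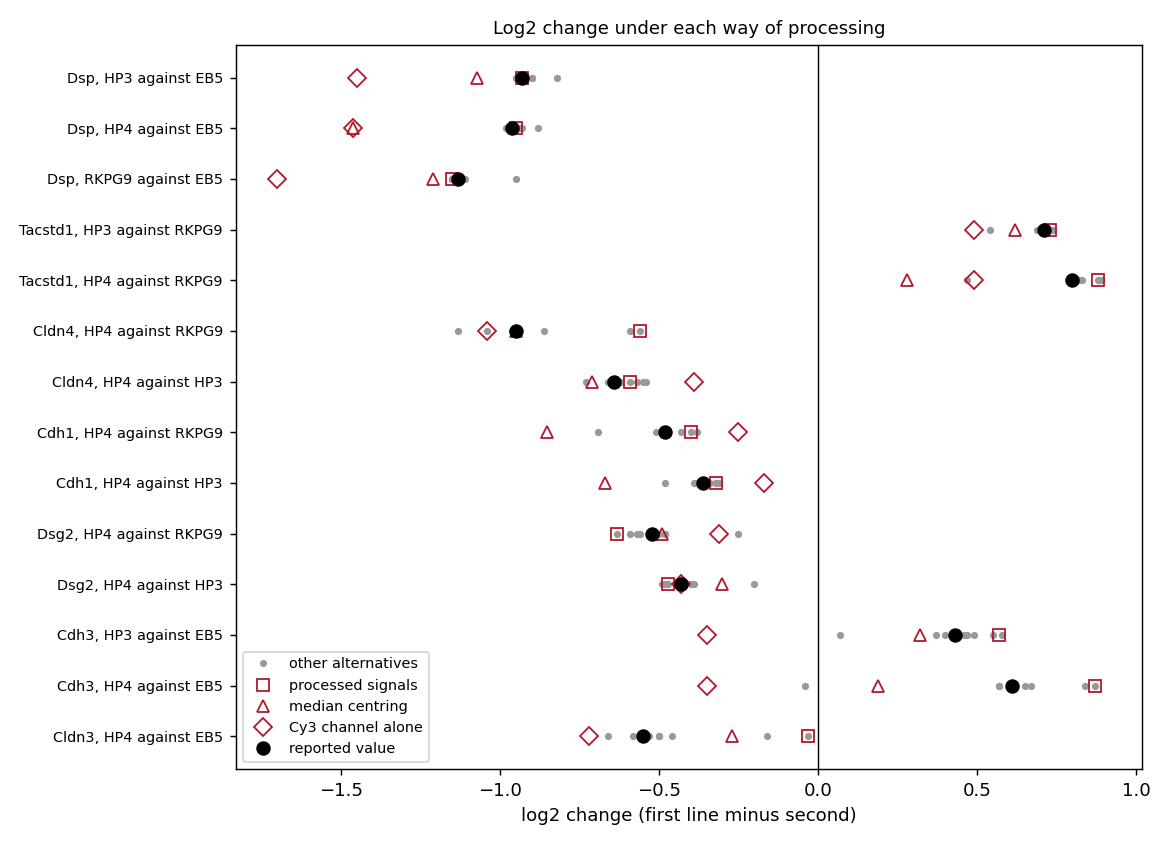
Log2 change (first line minus second) of 7 members in 14 gene and comparison pairs, with a filled circle for the reported value, open symbols for 3 alternatives named in the key and grey dots for the others, including each array left out. Dsp, Tacstd1, Cldn4, Cdh1 and Dsg2 stay on 1 side of 0. Cdh3 against EB5 crosses it with the Cy3 channel alone and, in HP4, also without background subtraction (-0.04). Cldn3 in HP4 comes to -0.03.

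The catenins, plakophilins and other relatives under older names were less even. Ctnnal1 (Catnal1 on the array), which encodes alpha-catulin, was lower in all 3 targeted lines by both of its probes. The brighter was at 1.42, 1.46 and 1.44 in HP4, 1.57, 1.56 and 1.62 in HP3, 1.85, 1.80 and 1.82 in RKPG9 and 2.46, 2.54 and 2.52 in EB5. The 4 lines did not overlap. The change against EB5 was -1.07 in HP4, or 2.10-fold lower (SE 0.03, adjusted p = 2.4e-09), -0.93 in HP3 (adjusted p = 1e-08) and -0.68 in RKPG9 (adjusted p = 4.2e-08), and the other probe gave -0.97, -0.89 and -0.80. Within the common session the brighter probe changed by -0.24 in HP3 (adjusted p = 0.00024) and -0.38 in HP4 (adjusted p = 4.4e-06) against RKPG9, and the other by -0.09 (adjusted p = 0.13) and -0.17 (adjusted p = 0.0042). Cdhr1 (Prcad), a photoreceptor cadherin, rose by 0.90 in HP3, 0.76 in HP4 and 0.67 in RKPG9 against EB5 (SE 0.06, adjusted p = 1.8e-06, 4.9e-06 and 1e-05).

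The core catenins of the adherens junction differed among themselves. Ctnna1, for alpha-E-catenin, was between 1.34 and 1.36 in EB5 and between 0.87 and 1.02 in the other lines, with changes of -0.37 in HP3, -0.43 in HP4 and -0.36 in RKPG9 (SE 0.04, adjusted p = 1.7e-05, 4.1e-06 and 1.1e-05). With the Cy3 channel alone, the call stayed in HP4 only. Ctnnb1, for beta-catenin, changed by -0.15 in RKPG9 against EB5 (SE 0.04, adjusted p = 0.0082) and its other probe by -0.19 (adjusted p = 0.013), while in neither Rex1-/- line was it called against EB5. The 2 probes of Ctnnd1, for p120-catenin, were called in opposite directions in HP4 against EB5 (-0.17, adjusted p = 0.0031, and 0.30, adjusted p = 0.00098). Ctnnbl1, a nuclear protein named for its similarity to beta-catenin, was lower in HP4 than in RKPG9 and HP3, with changes of -0.42 (SE 0.04, adjusted p = 3.3e-05) and -0.31 (adjusted p = 0.00066). Among plakophilins, the probe placed under Pkp4 is described on the array as catenin delta 2, neural plakophilin-related, so its gene is uncertain. The brighter Pkp2 probe and this Pkp4 probe were lowest in RKPG9. Their changes against EB5 were -0.40 (SE 0.05, adjusted p = 0.00011) and -0.36 (SE 0.03, adjusted p = 8.6e-06). Both probes were higher in HP3 than in RKPG9, by 0.21 (adjusted p = 0.014) and 0.27 (adjusted p = 3.8e-05), and with median centring both calls were lost. With the Cy3 channel alone, the Pkp2 rise in HP3 and the Pkp4 change against EB5 were not called either, and the Pkp2 rise was also lost without the third RKPG9 array. The other Pkp2 probe was called in no comparison, with mean levels of -0.46 in both RKPG9 and HP4, -0.29 in HP3 and -0.24 in EB5. Pcdh19 was called between lines too, but was well above background in EB5 alone.

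Other genes of the same structures gave a mixed picture. Of 24 measured junction partners, 12 were lower and 2 higher in HP3 against EB5, 11 and 2 in HP4, and 15 and 0 in RKPG9. Of all probes, 19.1%, 26.4% and 21.6% were lower and 11.4%, 18.4% and 12.5% higher there. The medians of the 24 were -0.12, -0.11 and -0.16 beside -0.02 for all probes. Against RKPG9, 8 were higher and 5 lower in each Rex1-/- line, beside 12.6% and 10.1% of all probes in HP3 and 20.9% and 19.1% in HP4. In HP4 against HP3, 5 were higher and 5 lower, beside 13.7% and 14.7%. One of the 24 is Gjc1, which is the member Gja7. Perp, a membrane protein needed for desmosomes, had the largest change, -1.13 in HP3 and -1.07 in HP4 against EB5 (SE 0.03, adjusted p = 1.4e-09 and 1.9e-09), and -0.66 and -0.60 against RKPG9 (adjusted p = 8.2e-08 and 1.1e-07). Zyx, the focal contact protein zyxin, changed by -0.69 in RKPG9 against EB5 (SE 0.09, adjusted p = 8.2e-05).

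Of 12 measured polarity genes, 4 were lower and 1 higher in HP3 against EB5, 6 and 1 in HP4, and 4 and 0 in RKPG9, while 2 were higher and 3 lower in each of the comparisons within the session. The medians against EB5 were -0.09, -0.11 and -0.09. Beside this list and the next ones, 11.4% of all probes were higher and 19.1% lower in HP3 against EB5. The shares were 18.4% and 26.4% in HP4 against EB5, and 12.5% and 21.6% in RKPG9 against EB5. They were 12.6% and 10.1% in HP3 against RKPG9, 20.9% and 19.1% in HP4 against RKPG9, and 13.7% and 14.7% in HP4 against HP3. Pard6g, of the Par complex, Rhoa, the actin regulator, and Mark2, a polarity kinase, had changes of -0.49, -0.47 and -0.43 in HP4 against EB5 (adjusted p = 2.5e-05, 3.3e-05 and 0.0024). Of 13 measured genes of the epithelial-mesenchymal transition, 5 were higher and 3 lower in HP4 against RKPG9, 5 and 4 in HP4 against HP3, and 3 and 0 in HP3 against RKPG9. Against EB5, 0 were higher and 3 lower in HP3, 2 and 6 in HP4, and 1 and 5 in RKPG9. The medians were 0.22 in HP4 against RKPG9, 0.12 in HP4 against HP3 and 0.01 in HP3 against RKPG9, where 20.9%, 13.7% and 12.6% of all probes were higher, and -0.09, -0.19 and -0.21 in HP3, HP4 and RKPG9 against EB5. Vim, the intermediate filament vimentin, changed by -1.51 and Acta2, smooth muscle actin, by -0.97 in RKPG9 against EB5 (SE 0.06, adjusted p = 3.9e-09 and 4.1e-07). Ovol2, which maintains epithelial identity, changed by -0.80 in HP4 against RKPG9 (SE 0.11, adjusted p = 0.00011). Of 12 measured regulators and targets of beta-catenin, 3 were higher and 1 lower than RKPG9 in each Rex1-/- line. Against EB5, 2 were higher and 1 lower in HP3, 4 and 3 in HP4, and 0 and 5 in RKPG9, and in HP4 against HP3, 1 was higher and 1 lower. The medians of these 12 lay between -0.03 and 0.10 in the 6 comparisons. Tcf7, a beta-catenin partner in transcription, rose by 0.90 in HP3 against RKPG9 (SE 0.04, adjusted p = 8.1e-08), Nkd1 by 0.31 (adjusted p = 0.034), and Myc by 0.24 in HP4 (adjusted p = 7.5e-05).

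Markers of cell state changed in some of the same comparisons. In HP4, where Cdh1, Dsg2 and Cldn4 were lowest, 8 of 11 measured markers of undifferentiated ES cells were lower and 1 higher than in RKPG9. Against HP3, 7 were lower and 0 higher. Of all probes, 19.1% and 14.7% were lower and 20.9% and 13.7% higher in these comparisons, in that order. Against EB5, 4 of the 11 were lower and 2 higher in HP4, beside 26.4% and 18.4% of all probes. The targeted gene, Zfp42, is on this list and was counted as lower in HP4 in each of these comparisons. The mean level of the 11 was 2.59 to 2.79 on HP4 arrays, 3.04 to 3.07 in RKPG9, 2.98 to 3.11 in HP3 and 2.62 to 2.89 in EB5. All 7 measured fibroblast markers were higher in HP4 than in RKPG9 and 6 were higher than in HP3, where 20.9% and 13.7% of all probes were. Against EB5, 2 of the 7 were higher and 3 lower in HP4. Their mean levels were -3.08 to -2.95 in HP4, -3.59 to -3.57 in RKPG9, -3.50 to -3.26 in HP3 and -3.12 to -2.70 in EB5. The HP4 arrays had the lowest share of probes well above background in Cy3, 85.3% to 86.1%. No counts of the marker lists are given under other ways of processing. With the Cy3 channel alone, 20.2% of all probes were called in HP4 against RKPG9 and 6.59% in HP4 against HP3. The shares reported were 40.0% and 28.4%. Of 9 trophoblast markers, 5 were lower in HP3 than in EB5, where Dsp and Cldn3 were lower too, 6 in HP4 and 5 in RKPG9. Of all probes, 19.1%, 26.4% and 21.6% were lower there. In the same order, 0, 0 and 1 of the 9 were higher. Their mean levels were -0.03 to 0.03 in EB5 and -0.55 to -0.45 in the other lines. The median changes of the 9 were smaller, -0.23 in HP3, -0.33 in HP4 and -0.24 in RKPG9, beside -0.02 for all probes. In each of these comparisons 2 of the 9 passed both thresholds. Krt18, a keratin of simple epithelia on that list, changed by -2.60 in HP3 against EB5 (SE 0.06, adjusted p = 2.6e-10). Of 14 primitive and visceral endoderm markers, 2 were higher and 5 lower in HP3 against EB5, 3 and 4 in HP4, and 3 and 4 in RKPG9. The shares of all probes were 11.4% and 19.1% in HP3, 18.4% and 26.4% in HP4, and 12.5% and 21.6% in RKPG9. The part of these markers in the changes of the junction genes was not tested, and fewer cells of a type and less RNA per cell cannot be told apart in such samples.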

How the data were processed

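The 12 two-colour Agilent arrays, 3 for each of 4 ES cell lines, set Cy3-labelled RNA of a line against a Cy5-labelled pooled mouse reference. The authors extracted the spot intensity values with Agilent Feature Extraction 7.5.1, which subtracted background with spatial detrending and normalized the dyes by linear and LOWESS steps. The deposited log10 ratio is Cy5 over Cy3, and a deposited series table holds log10 levels, of which the scale and centring are not stated. Its array medians were 2.87 to 2.88, and 93.82% to 95.9% of its values lay within 0.01 of the ratio turned to Cy3 over Cy5 plus a constant for each probe.

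Here mean and background intensities were corrected with normexp (offset 50) and loess within arrays, and spots of 1 probe were averaged. Control spots, outlier spots and a retired probe were left out, which leaves 20280 probes. The log2 ratios were fitted over all 12 arrays with limma 3.58.1 in R 4.3.3 (data.table, version 1.17.8), with Benjamini-Hochberg adjustment over all probes in each comparison. Probes were called at an adjusted p under 0.05, and both thresholds add a change over 2-fold. Tables and figures were made in Python 3.11.15 with pandas 2.3.3, numpy 2.4.6 and matplotlib 3.10.9. Precision is limited by the number of arrays.

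The members and gene lists were chosen with earlier results of these data known. Genes are named if a probe passed both thresholds, if they had the largest called changes of their role (up to 4 in a Rex1-/- line against EB5 and up to 2 within the common session), if they stood on a list of 26 well-known junction genes, of which 20 were measured, or if they were among the up to 3 largest called changes of a list of other genes. Values of members outside this rule were added after they had been seen. The brightest probe stands for a gene. Some genes count in the totals but are not reported here.

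The alternatives were the processed signals, the authors' table, no background subtraction, an offset of 0, the Cy3 channel alone, median centring, outlier spots kept, a filter on dim probes, fits of only the lines compared, a replicate block and each array left out. Values of 19050 probes were also simulated for all 12 arrays with independent noise, and changes were added in HP3 alone. The test of HP3 against EB5 then called 45 of 50 probes given a log2 change of 0.5, 50 of 50 given 1.2, and 11 of 18850 unchanged ones. In the data 30.5% of all probes were called in this comparison, far more than were changed in the simulation.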

Additional observations from a re-analysis of the deposited data

Results flagged for a closer look

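HP3 and HP4 carry the same Rex1 genotype. By limma's test of HP4 against HP3 (adjusted p under 0.05 over all probes), 11 of the 45 members were higher and 6 lower. These were 24.4% and 13.3%, beside 13.7% and 14.7% of all probes. The 10 genes below were named partly for their change in this comparison, so their number says nothing about the members. HP4 was lower for Cldn4 (-0.64), Dsg2 (-0.43), Cdh1 (-0.36) and the brighter Gja1 probe (-0.27). It was higher for Cdh11 (0.39, not well above background in HP4), Pcdhb17 (0.32), Cdh2 (0.23), Pcdh12 (0.21), the brighter Jup probe (0.13) and Gjb5 (0.11). For Gja1 and Jup the other probe was called in the opposite direction. The labels give no record of what else differs between the lines, and the cause was not tested.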

How the results depend on the processing

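The counts of members called were within 1.5 times the reported ones except in 2 settings. With the Cy3 channel alone they fell to 8 from 15 in HP3 against EB5, 9 from 18 in RKPG9 against EB5, 6 from 11 in HP3 against RKPG9 and 4 from 17 in HP4 against HP3, where 27.1%, 27.0%, 9.19% and 6.59% of all probes were called. With median centring they were 6 in HP3 against RKPG9 and 31 in HP4 against HP3, where 15.1% and 70.5% of all probes were. Leaving out each array in turn gave 13 to 14 calls in HP3 against EB5, 19 to 24 in HP4 against EB5, 16 to 19 in RKPG9 against EB5, 9 to 12 in HP3 against RKPG9, 22 to 23 in HP4 against RKPG9 and 12 to 16 in HP4 against HP3.

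Directions turned as follows; the cause was not tested. With the Cy3 channel alone, Cdh3 was at -0.35 in HP3, -0.35 in HP4 and -0.38 in RKPG9 against EB5, Cdh16 at 0.05 in HP3 and 0.12 in HP4, and Jup at -0.14 and Pcdh13 at 0.01 in HP4 against EB5. With median centring, HP4 was at -0.53 for Tacstd1 and 0.09 for Dsc1 against EB5, and at -0.25 for Dsp and -0.06 for Tjp1 against RKPG9. Cldn4 in HP3 against RKPG9 was at 0.03 with both the processed signals and the authors' table, and Cdh3 in HP4 against EB5 at -0.04 without background subtraction. Over the 81 gene changes examined, not all of which were called, the Cy3 channel alone ended 33 calls and turned 7 values. Among 483 values with an array left out, 15 lost their call and none turned.

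With a replicate block the counts of members called were 14, 21, 19, 11, 24 and 17 in the order above. Of the 81 gene changes examined, not all of them called, 2 lost their call. The replicate numbers did not pair the arrays: deviations of arrays with the same number correlated between -0.18 and 0.2, and no comparison had all 3 over 0.1. Signal over background limits the dim members, since 5 of 45 were not well above background on any HP3 array and 5 on any HP4 array.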
